A study of Danio rerio with 14 samples.

Results

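Among the genomic regions that carried an H3K27ac peak in every sample of the series, 272 were long and had ranks of covered length that overlapped between tumors and thymus. They were found by merging the 7 peak lists wherever peaks overlapped by at least 1 bp, which gave 81921 regions on chromosomes 1 to 25, of which 7019 had a peak in all 7 lists. The base pairs that peaks covered in each of these 7019 regions were turned, list by list, into a percentile from 0 to 100. A member is a region of at least 3000 bp in which the percentile ranges of the 4 tumors and the 3 thymus samples overlapped. Of the 437 shared regions of that length, 272 were members, 67 were wholly higher in tumors and 98 were wholly higher in thymus. Members were thus chosen by covered length itself, so covered length, percentile and number of peaks are given below as a description, without a test. Over shared regions of any length, the ranges of the groups overlapped in 81.2%, tumors were wholly above thymus in 8.78% and thymus was wholly above tumors in 10.0%. Since the rule fixed these classes, nothing is read from the members' share against that background.

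Acetylation of histone H3 at lysine 27 (H3K27ac) is deposited at active promoters and enhancers. In many cell types the broadest stretches of the mark lie at genes that define the cell's identity and at strongly transcribed housekeeping genes. In T cells such genes include those of T-cell receptor signaling and the transcription factors that commit a progenitor to the T lineage.

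The tumors came from zebrafish carrying the human IRF4 gene and the mCherry reporter, both driven by the zebrafish lck promoter, a promoter active in lymphocytes. The thymus samples came from zebrafish carrying the lck-driven mCherry reporter without IRF4, taken at 3 months. Cells were sorted for mCherry in both groups, so each sample holds the lck-expressing cells of its tissue rather than the whole tissue. Tumors are numbered 1, 2, 3 and 4, and thymus samples 2, 3 and 5. The label of tumor 4 speaks of a lymphoma phenotype and those of the other tumors of a tumor phenotype. No age is given for the tumors, and how many fish made up a thymus library is not settled by the labels. A figure legend of the study calls the thymus samples pooled, so a thymus library may hold several fish.

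The lists were unequal. They held 19809 to 40335 peaks, and thymus 2 and tumor 4 covered the least of the genome, 9.05 and 9.11 Mb against 15.0 to 18.4 Mb in the other 5 lists. In thymus 2 and thymus 5 the word batch is part of each peak's name, and in the other 5 lists it is not. Of those 5 lists only thymus 3 is a thymus sample, so a batch effect and the difference between groups cannot be told apart beyond that sample. The lists hold no read totals and the study states a single nominal depth for all libraries, so the reads behind each list are not known and no counting interval is given.

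Members measured 3006 to 13366 bp, with a median of 3593 bp, and summed to 1.10 Mb. Between 4.09% and 5.82% of a list's covered length lay in them. They were found on every chromosome, from 2 of the 203 shared regions on chromosome 12 (0.99%) to 19 of 317 on chromosome 20 (5.99%). Chromosome 3 had the most, 21 of 429 (4.90%). Only regions of at least 3000 bp could be members, and 272 of those 437 were (62.2%). On chromosome 12 these were 2 of 4, on chromosome 20 19 of 24 and on chromosome 3 21 of 40. The median distance to the next member was 1.05 Mb, and 25 members had another within 10 kb.

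The word stable holds for some of the members only. The spread of a member, the highest minus the lowest of its 7 percentiles, had a median of 21.2 points, with quartiles of 8.52 and 51.1 points. In 44 members (16.2%) it was under 5 points, and in 69 members (25.4%) it was over 50 points. All 7 lists placed 66 members at the 90th percentile or above. A further 79 members were there in all lists but 1, and 127 in 5 or fewer. The rule asks only that the groups overlap, so a member can differ widely from list to list. Taken in the same way, the median spread was 18.7 points in the 98 regions broader in thymus and 56.0 points in the 67 broader in tumors. In the 6582 shared regions under 3000 bp it was 43.0 points. A small spread was therefore not particular to members.

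**Figure D1:**
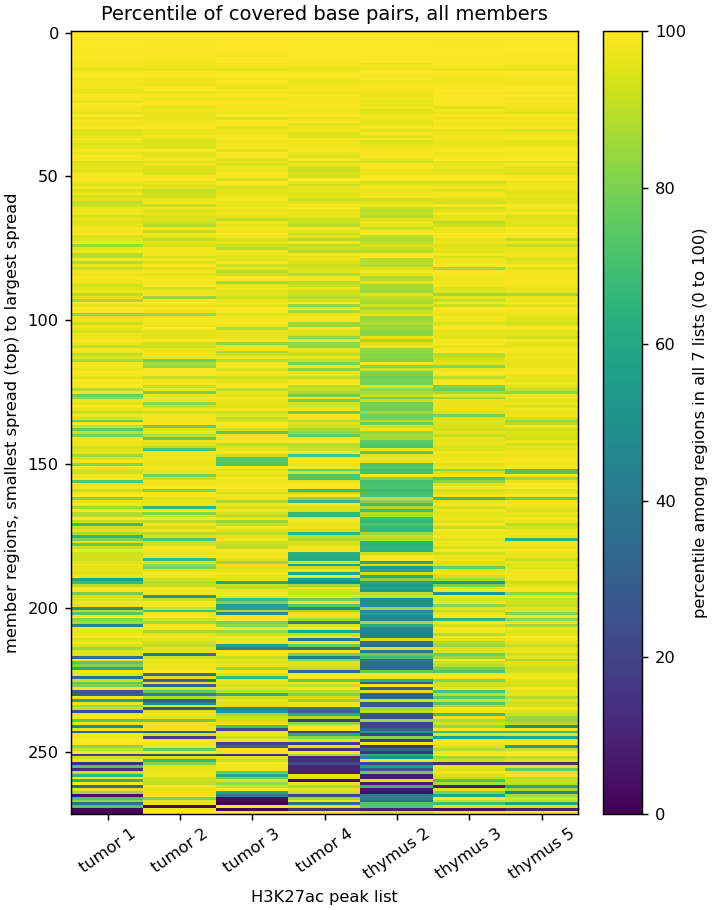
Each row is 1 of the 272 members, ordered from the smallest spread at the top to the largest at the bottom, and each column is a peak list. Color gives the percentile of covered base pairs among the 7019 regions found in all 7 lists. The upper rows are high in every list, and low values lower down lie most often in the thymus 2 column.

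The members with the smallest spread included loci of T-cell identity. Names are those that the study's annotation gives to an overlapping stitched locus in tumor 1, where the gene with the strongest promoter signal nearby was taken. They name a locus and do not show that the region acts on that gene. There, 81 members had a name, 66 different names in all. For 62 combinations of a name and a chromosome the symbol was found in the RefSeq table of assembly GRCz12tu, on the same chromosome number in all 62. A member without a name says nothing about the genes near it. All coordinates are on GRCz11.

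The lck locus had the most base pairs shared by all lists of any T-cell gene named here. Lck is the kinase that starts signaling from the T-cell receptor. The member on chromosome 17 from 25378273 to 25384255 was 5983 bp long, and peaks covered 4736, 5676, 5615 and 5616 bp of it in tumors 1 to 4 and 3829, 5062 and 5063 bp in thymus 2, 3 and 5. Its percentiles lay between 99.6 and 99.9 in all lists. In total 3536 bp, 59.1% of the region, were under a peak in every list, summed over the pieces that peaks left. Only the ndufb2 member had a larger sum. Both transgenes carry an lck promoter and cells were sorted for its activity, so at this locus reads from the fish's own gene and from a transgene copy of the promoter cannot be told apart.

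At bcl11ba, a zebrafish counterpart of the T-lineage commitment factor BCL11B, the member spanned chromosome 17 from 18115495 to 18126516. Peaks covered 10773, 7585, 9184 and 8567 bp in the tumors and 4025, 9405 and 10177 bp in thymus 2, 3 and 5. The groups overlapped, and thymus 2 was the lowest in base pairs although it still ranked this region at the 99.9th percentile. The group means were 9027 ± 1337 bp (SD, n = 4) in tumors and 7869 ± 3351 bp (SD, n = 3) in thymus.

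The smallest spread of all, 0.10 points, belonged to a region of 11385 bp at hivep2a, which encodes a large zinc finger transcription factor. It lies on chromosome 20 from 37625615 to 37636999. Covered length was 9881, 8814, 6319 and 5339 bp in tumors 1 to 4 and 4865, 10399 and 10265 bp in thymus 2, 3 and 5. Near the top of the ranking, then, covered length can vary between lists while the percentile hardly moves.

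Cyclin D2, which drives cells through the first gap phase of the cycle, is encoded at ccnd2a. The member there, on chromosome 25 from 17234416 to 17240075, was covered over 4290, 4462, 4584 and 3898 bp in the tumors and 4085, 4964 and 5261 bp in the thymus samples. The highest and the lowest of the 7 values were 1363 bp apart.

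Loci named for genes of general cell function were among them as well. The member named for ndufb2, a subunit of mitochondrial complex I, had the most base pairs shared by all lists of any member, 3933 bp of 8299 bp in total. It was covered over 7207, 6263, 7570 and 6505 bp in the tumors and 4795, 7061 and 7278 bp in thymus 2, 3 and 5. At anp32a, which encodes an acidic nuclear phosphoprotein, 2991 bp of 5196 bp were shared by all lists and covered length ran from 3348 bp in tumor 2 to 4894 bp in thymus 5. The member with the largest share of its length common to all lists carried the name ubtf, in a table held only in part. It encodes a factor of ribosomal RNA transcription. There 2511 bp of 3619 bp, or 69.4%, lay under a peak in all lists. The region on chromosome 19 from 30419236 to 30423962, named in the same way for ppp1r10, a regulatory subunit of protein phosphatase 1, had 2565 bp of 4727 bp in common.

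The remaining regions among the 10 with the smallest spread were those of csrnp1a, a nuclear protein, at 1.05 points, a region on chromosome 20 from 32220855 to 32227255 at 0.50 points, and 2 regions without a name in tumor 1. The chromosome 20 region is called armc2 in the tumor 1 table and sesn1 in another of the study's tables, which shows how far such names can be taken. One of the unnamed regions, on chromosome 14 from 14558153 to 14567803, had a spread of 0.87 points with only 824 bp of its 9651 bp shared by all lists. Similar rank and shared position are therefore separate measures.

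**Figure D2:**
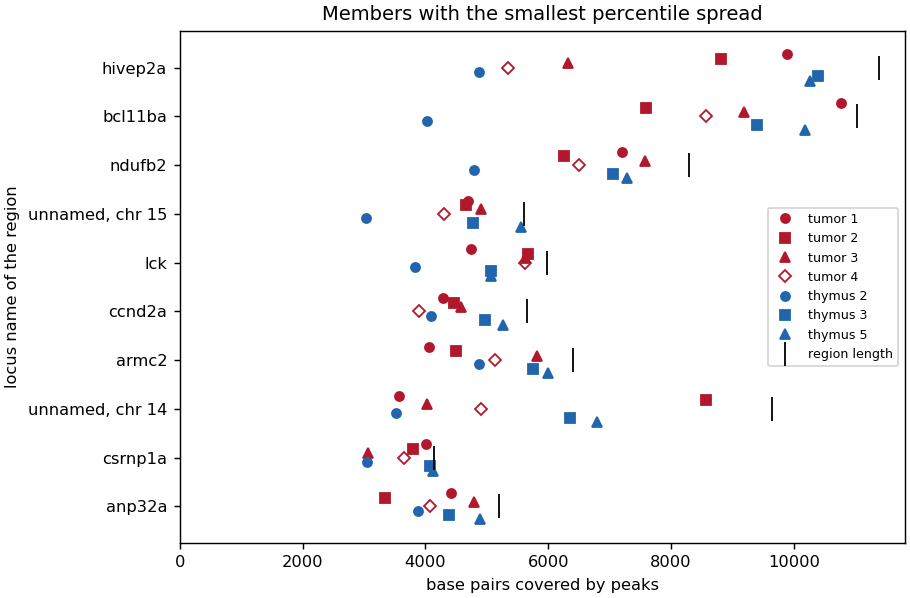
Base pairs covered by peaks (horizontal axis) in each of the 7 lists for the 10 members with the smallest percentile spread. Red symbols are tumors, blue symbols thymus samples, and black ticks the region length. Thymus 2 lies lowest in 7 of the 10 rows, and the tumor and thymus points overlap in every row.

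Of 18 genes listed as T-cell markers, 5 named a member, namely lck, bcl11ba, ptprc, ikzf1 and il7r. None of 16 listed genes of B cells, granulocytes, macrophages and erythroid cells did so. The T-cell list is not confined to T-cell genes, since ptprc is a leukocyte gene and ikzf1 a lymphoid one. The annotation names few members and the lists were drawn up with earlier results known, so the counts only describe which names occurred. How many of the listed genes name any shared region is not given here. No contrast between cell types is therefore read from the counts. At ptprc, which encodes the leukocyte phosphatase CD45, the member on chromosome 22 from 23060765 to 23066308 was covered over 2440, 4267, 3466 and 2706 bp in the tumors and 1976, 4379 and 5011 bp in thymus 2, 3 and 5. Its spread was 2.87 points. The ikzf1 member, named in a table held only in part for the lymphoid factor Ikaros, lies on chromosome 13 from 15990939 to 15995094. It was covered over 2491, 3372, 3330 and 3603 bp in the tumors and 1541, 2190 and 3777 bp in the thymus samples, with a spread of 7.70 points. Both regions were above the 90th percentile in every list.

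The fifth name, il7r, stood for a member with little in common between lists. It encodes the receptor chain for interleukin 7, a survival signal of developing T cells. Its member, on chromosome 21 from 22419961 to 22423100, was covered over its whole 3140 bp in tumor 2 and over 221, 212 and 266 bp in tumors 1, 3 and 4. The thymus samples had 135, 309 and 538 bp. The region reached 3000 bp through tumor 2 alone, no base of it was shared by all lists, and its spread was 97.7 points. It satisfies the rule because, in percentile, tumors 2 and 4 lay above every thymus sample and tumors 1 and 3 below them.

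The other members with the largest spread each had little cover in at least 1 tumor. On chromosome 6 from 28220070 to 28226118, tumor 1 had 144 bp where tumors 2, 3 and 4 had 5624, 5508 and 3191 bp and the thymus samples 1720, 3564 and 4572 bp. On chromosome 8 from 23325201 to 23328662, tumor 2 had 182 bp and the other lists 924 to 3256 bp. On chromosome 20 from 35956642 to 35959674, tumor 3 had 151 bp and the others 452 to 2568 bp. On chromosome 15 from 28278058 to 28281563, tumor 3 had 329 bp and thymus 2 had 406 bp, against 1318 to 2566 bp elsewhere. In the 5 members with the largest spread, no more than 25 bp were shared by all lists.

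Thymus 2 set the lower end of the range more often than any other list. It was the lowest list in 116 of the 272 members, followed by tumor 4 in 52, while thymus 5 was lowest in 3. In 51 members thymus 2 alone fell below the 90th percentile, against 0 to 11 members for each other list. Leaving its percentiles aside, the median spread of the same members was 11.1 rather than 21.2 points. Within groups, the median spread was 9.17 points over the 4 tumors and 11.01 points over the 3 thymus samples. Thymus 3 and thymus 5 alone differed by a median of 1.52 points, a range over fewer samples. What sets thymus 2 apart was not tested.

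Of the 51 members in which thymus 2 alone lay below the 90th percentile, 25 had a name in the tumor 1 table, 21 different names, with thymus 2 at percentiles of 15.1 to 89.7. The names were mixed and included lpar5a, h2afx, trib3, prkar2aa, slc29a1a, hipk3a and qrsl1. As examples, 4 others picked after their values were seen are given here. At sash3, an adaptor of antigen receptor signaling, thymus 2 had 1123 bp against 2216 to 5192 bp in the other lists. At bach2b, a transcription factor that restrains lymphocyte differentiation, it had 1165 bp against 1696 to 3019 bp. At kdm6bb, a demethylase of the repressive mark on the same lysine, it had 978 bp against 2619 to 3364 bp. At prkcbb, a protein kinase C, it had 1355 bp against 2797 to 3747 bp in the member from 35093433 to 35097381 on chromosome 3. In the neighboring prkcbb member, from 35089273, thymus 2 was not low. It had 1849 bp there, against 1501 to 3174 bp in the tumors and 1804 and 2007 bp in thymus 3 and 5. In base pairs, thymus 3 and thymus 5 lay above all tumors at sash3 and bach2b, whereas at kdm6bb thymus 3 lay just below them. In percentile, tumor 1 (99.6) lay above thymus 5 (99.5) at sash3. At bach2b tumor 1 (96.8) lay above thymus 3 (96.6) and thymus 5 (96.7).

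**Figure D3:**
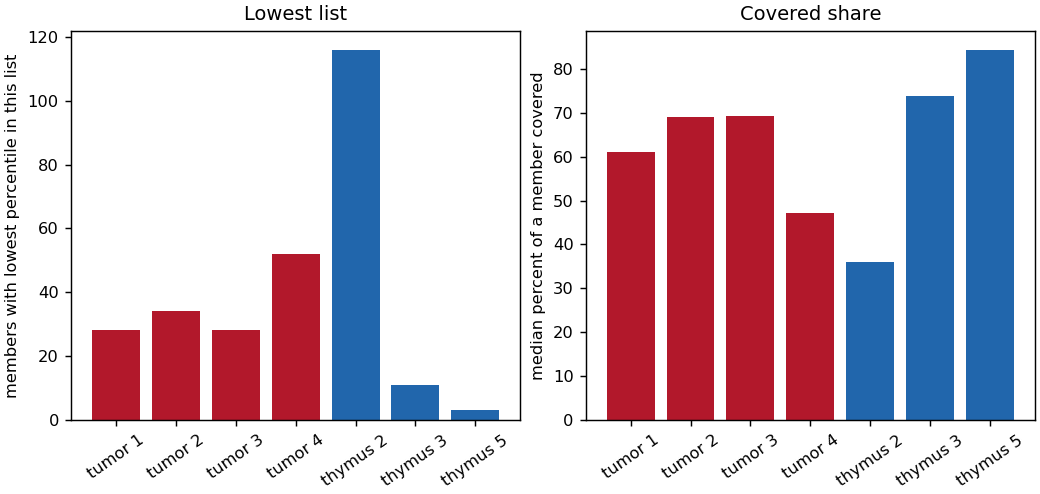
Left, the number of the 272 members in which each list had the lowest percentile. Right, the median percent of a member that peaks of the list covered. Thymus 2 was lowest in 116 members and covered a median of 36.1%, while thymus 5 was lowest in 3 and covered 84.4%.

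Neighboring members of a locus could differ. At hivep2a 4 members lay between 37595203 and 37636999 on chromosome 20. The one described above was above the 90th percentile in all lists. The 3349 bp member from 37612296 had 2957, 2080, 2398 and 713 bp in the tumors and 221, 2426 and 3089 bp in thymus 2, 3 and 5, with a spread of 79.5 points. The 4240 bp member from 37617969 had 212 bp in thymus 2 and 2212 to 4171 bp in the other lists. At ccnd2a a second member of 3180 bp, from 17231029, had 2757, 2431, 2525 and 1153 bp in the tumors and 1223, 2984 and 3180 bp in the thymus samples. At atf7ip, a cofactor in gene silencing, the 2 members lay 418 bp apart. In the second of them tumors 3 and 4 had 676 and 301 bp, against 2854 to 3450 bp in the other lists. At csrnp1a a further member, from 23780934 on chromosome 2, had 2243, 3208, 684 and 3060 bp in the tumors. It had 365, 3609 and 3687 bp in thymus 2, 3 and 5, with a spread of 77.3 points.

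The median percent of a member under a peak was 61.1%, 69.0%, 69.2% and 47.2% in tumors 1 to 4, and 36.1%, 73.8% and 84.4% in thymus 2, 3 and 5. The group means were 61.6 ± 10.3% (SD, n = 4) and 64.7 ± 25.4% (SD, n = 3). The 3 thymus samples thus lay on both sides of all tumors. Thymus 5 spanned 18 members from end to end, and each other list at most 4.

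Depending on the list, 40 to 119 of the 272 members held a single peak. A list used a mean of 2.02, 2.17, 1.95 and 2.23 peaks per member in tumors 1 to 4 and 2.97, 2.49 and 2.01 in thymus 2, 3 and 5. The group means were 2.09 ± 0.13 (SD, n = 4) and 2.49 ± 0.48 (SD, n = 3), with thymus 5 inside the range of the tumors. The number of members that held a single peak was highest in thymus 5, at 119, and lowest in thymus 2, at 40. The difference between the groups, -0.40 peaks, was -0.11 when only peaks of at least 128 bp were kept and -0.88 among members of at least 5000 bp. The narrowest peak of a list measured 72 to 128 bp in tumors and 50 to 54 bp in thymus. In 2 members, csrnp1a from 23789546 to 23793687 on chromosome 2 and a region on chromosome 3 from 27606023, every list had a single peak.

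Only part of a member was common to all lists. The base pairs under a peak in all 7 lists, summed within a member, had a median of 631 bp. Their share of the region had a median of 16.0%, with quartiles of 7.90% and 28.2%. The sum reached 1000 bp in 77 members and was 0 in 16 (5.88%), among them il7r and the hivep2a member from 37612296. Pooled over members, 18.8% of the base pairs were covered in 7 lists, 18.1% in 6 and 12.5% in only 1. Without thymus 2 the median share common to the other 6 lists was 30.3%. The corresponding medians of the share common to 7 lists were 5.02% in the 67 regions broader in tumors and 23.6% in the 98 broader in thymus. In the 6582 shared regions under 3000 bp the median was 16.6%, close to that of members. These classes were set by the same lists and the differences were not tested.

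Around the midpoint of the best shared run of each member, peaks fell away at a different pace in each list. Cover was read every 100 bp, and each position was counted as 100 bp. The share of members covered was 50% or more across 2000, 2400, 2300 and 1300 bp in tumors 1 to 4. In thymus 2, 3 and 5 it was so across 700, 2600 and 3100 bp. At 2 kb on either side, 9.74% of members were still covered in thymus 2 and 33.1% in thymus 5, with the tumors between 14.9% and 28.5%. The midpoint was placed from the same 7 lists, so the high cover there follows from the choice.

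**Figure D4:**
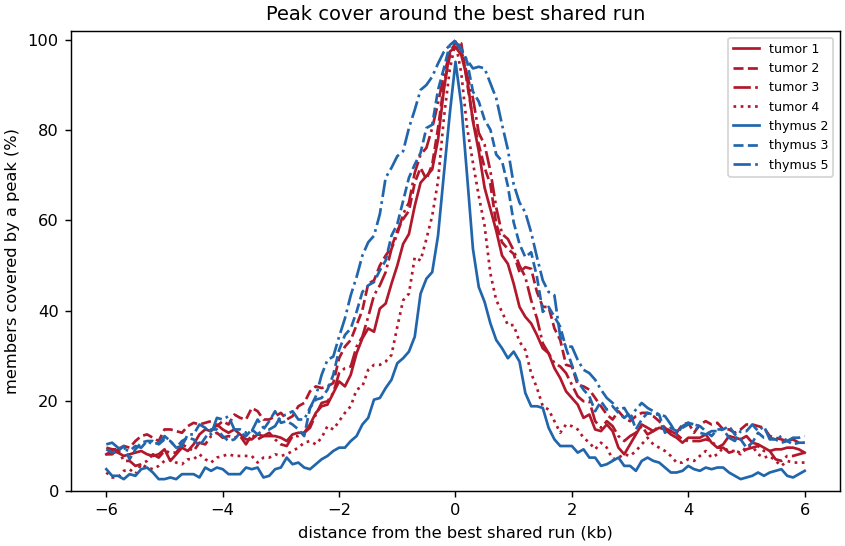
The percent of the 272 members covered by a peak (vertical axis) against distance in kb from the midpoint of the run covered by the most lists, drawn for each list with tumors in red and thymus samples in blue. Thymus 2 is the narrowest curve, with 700 bp at or above the 50% level, and thymus 5 the widest, with 3100 bp.

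Tumor 1 was the only list with enrichment values. The highest fold enrichment of a tumor 1 peak within a member had a median of 4.72, against 4.59 in the 6582 shared regions under 3000 bp, 5.28 in the regions broader in tumors and 5.11 in those broader in thymus. A longer region gives more peaks from which to take the highest. Among members the median was 5.01 in the 44 with a spread under 5 points, 4.13 in the 69 with a spread over 50 points and 3.69 in the 16 without a shared base. At lck the highest fold was 3.18, the lowest of the 44 members with a spread under 5 points. The highest −log10 p-value of the authors' caller at lck was, in contrast, above the median of 15.6 for those 44 members. Lck was therefore lowest by the ratio only, and is not shown to be the weakest of them. Across the 272 members, Spearman's rho between the spread and this fold was -0.31, given as a description because tumor 1 enters both measures.

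Peak cover in the surroundings of members was not used to rank them, and the groups were compared there. The flanks were the 5 kb on either side of each member, outside every region that all 7 lists shared, 2.50 Mb in all. Taking out the shared regions uses the calls of the same 7 lists. Flank peaks thus come only from regions that some list lacks, and the flank values are not fully independent of the rule. Peaks covered 4.36%, 7.21%, 4.17% and 2.4% of them in tumors 1 to 4 and 1.43%, 5.53% and 5.87% in thymus 2, 3 and 5. The groups overlapped. The means were 4.53 ± 1.99% (SD, n = 4) and 4.28 ± 2.47% (SD, n = 3), and differed by less than the spread between samples (two-sided exact permutation p = 0.971, adjusted p = 0.971 by Benjamini-Hochberg over the 2 flank tests). The smallest p that 35 arrangements allow is 0.0286. The difference turned from 0.25 to -1.17 percentage points without thymus 2 and to -0.64 without tumor 2.

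Flanks of members were more often covered than those of the 6582 shorter shared regions in every list. The rule made members longer than these, and flanks of the other shared regions of at least 3000 bp are not given. Denser flanks are therefore not shown to be particular to members. The shorter regions had 1.14%, 1.41%, 1.28% and 0.55% in the tumors and 0.72%, 1.68% and 1.84% in the thymus samples. The ratio of the first to the second was 3.81, 5.12, 3.27 and 4.37 in tumors 1 to 4 and 1.98, 3.29 and 3.19 in thymus 2, 3 and 5. Tumor 3 lay just below thymus 3, and the other tumors lay above all thymus samples. The means were 4.14 ± 0.79 (SD, n = 4) and 2.82 ± 0.73 (SD, n = 3), and the difference of 1.32 was not significant (two-sided exact permutation p = 0.0857, adjusted p = 0.171). Among the 5 lists without the batch word the difference was 0.85, where no exact p can be under 0.2.

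**Figure D5:**
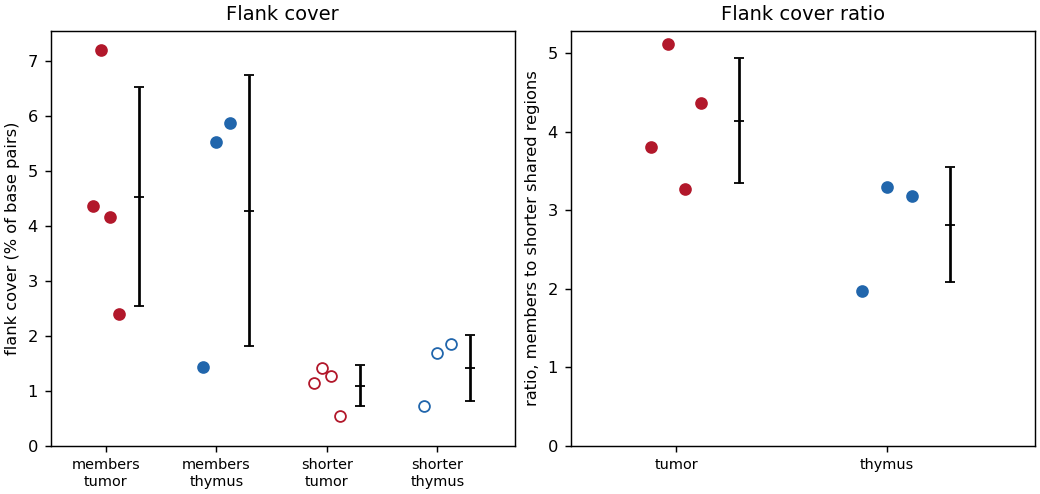
Left, the percent of flanking base pairs (5 kb either side) covered by peaks, for members (filled) and for shared regions under 3000 bp (open). Right, the ratio of both within each list. Points are samples, and bars give the mean and SD of 4 tumors or 3 thymus samples. Tumors and thymus overlap in both panels.

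The limits of the rule cut through similar regions. The shortest members had 3006, 3011 and 3012 bp and the longest shared regions left out for length alone had 2995, 2992 and 2987 bp. The member on chromosome 20 from 23252765 to 23255770, at 3006 bp, had a spread of 5.61 points, and the region on chromosome 6 from 48346269 to 48349255, at 2987 bp, had 6.42 points. The other limit was as close. At ef1 on chromosome 14 the ranges of the groups overlapped by 0.01 points, with percentiles of 98.3 to 99.7 in tumors and 99.7 to 99.9 in thymus, and at bcl11ba by 0.03 points. A region on chromosome 2 from 5133014 to 5136453 was left out for a gap of 0.03 points, and its spread of 3.03 points was smaller than that of most members.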

How the data were processed

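The lists of H3K27ac peaks from 4 tumors and 3 thymus samples were used, without the input libraries. Reads had been mapped by the authors to GRCz11 (Bowtie2), cleared of duplicates (SAMtools) and turned into broad peaks for each library on its own (MACS2 2.1.1.2016030). The deposited lists give the sequence, start, end and name of each peak. The list of tumor 1 also holds the score, the fold enrichment (a ratio) and the −log10 p-value and q-value that the authors' caller wrote. The narrowest peak allowed can differ between lists, and a wider region joins more peaks. Read totals are not in the files used.

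Peaks were merged, covered base pairs ranked and members found as described in the report, with Python 3.11.15, NumPy 2.4.6, SciPy 1.17.1, pandas 2.3.3 and matplotlib 3.10.9. The code was first tested on simulated peaks in which the class of each region was known. Groups were compared by exact two-sided permutation. Samples are separate by label, and each p-value sets the difference of group means against those under rearranged group labels. Named regions were the 10 with the smallest spread, the 10 with the most base pairs covered in all lists, the 5 with the largest spread, those nearest each limit, and those named for a listed marker. Other regions were picked after their values were seen. They lay at hivep2a, ccnd2a, csrnp1a, atf7ip, sash3, bach2b, kdm6bb and prkcbb, with the single-peak member on chromosome 3. Members and lists were chosen with earlier results of these data known. Gene names come from the study's own annotation, as names only, since no annotation of GRCz11 was used here.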

Additional observations from a re-analysis of the deposited data

Results flagged for a closer look

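Covered length in the 4 tumors was checked for a sample far from the other tumors in 24 items, of which 2 had one. Chance flags about 1 in 20 items that are not picked by their values. Both regions flagged here were among those picked by their spread, so that rate does not apply to them. At lck, tumor 1 had 4736 bp and the nearest tumor 5615 bp. At il7r, tumor 2 had 3140 bp and the nearest tumor 266 bp. The cause was not tested in either.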

How the results depend on the processing

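The count of 272 members rests on the length minimum, with 1134 regions at 2000 bp and 42 at 5000 bp. It was 257 to 382 when ranking by covered share, ranking among long regions only, keeping peaks of at least 128 bp, keeping the 19809 widest peaks of each list, dropping the widest stretches of tumor 2, using all sequences or joining peaks within 200 bp. Leaving out a list gave 190 to 254 regions. Among the 5 lists without the batch word, an alternative chosen after seeing the data, 138 regions qualified, and 122 of the 272 members overlapped one of them. The median share common to all lists was 36.1% when 6 of 7 lists were enough, and 15.7% to 30.3% when a list was left out, the highest without thymus 2.

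The difference in flank cover, 0.25 percentage points, turned to -0.62 with flanks of 2 kb, to -1.17 to 1.05 when a list was left out, and to -1.0 among the lists without the batch word. No alternative moved a flank test past the threshold of 0.05, and several could not have done so for want of samples. The ratio kept its direction in each alternative, from 0.68 with flanks of 10 kb to 1.89 with flanks of 2 kb. Tumor and thymus share replicate numbers 2 and 3, which come from different fish and do not pair the samples. As a replicate block over both numbers the differences were 2.21 percentage points and 1.56 in the ratio. Since the numbers do not pair samples, these values are not read as a group difference. Flank cover was 7.21% in tumor 2 against 1.43% in thymus 2, but 4.17% in tumor 3 against 5.53% in thymus 3. The difference in peaks per member, described without a test, went from -0.40 to -0.11 with peaks of at least 128 bp and to -0.88 at 5000 bp.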
